A study of Gallus gallus and Anas platyrhynchos and Coturnix japonica with 11 samples.

Results

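The frontonasal prominence (FNP) of the quail embryo (Coturnix japonica) was sequenced for microRNAs (miRNAs) at Hamburger-Hamilton stages HH25 and HH20. The level of every miRNA listed for both quail libraries is compared here between these stages. Of these miRNAs, 30 lay at least 2-fold apart and passed a limit on level, and 156 did not meet both conditions. The last entry of each file, which holds the total reads of the library, was left out of the miRNA values. The 2 quail groups, HH25 and HH20, hold 1 library each from a pool of 40 embryos, with no treatment or genetic change in their labels, and stand among 10 biological samples (11 libraries) of chicken, quail and duck in the series. The tissue is the dissected mesenchyme of the FNP, labelled as neural crest cells. Values are PMMR, the reads of a miRNA per 1000000 reads of its library. With 1 pool per stage nothing separates a change with stage from a difference between pools, and no test of the stages was made. The HH25 library held 3097711 reads and the HH20 library 4392404 reads, so that 1 read is worth 0.323 PMMR at HH25 and 0.228 PMMR at HH20. The lowest miRNA had 7 reads at HH25 and 18 reads at HH20. Intervals beside the ratios are exact 95% Clopper-Pearson counting intervals from these reads and cover counting error only.

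A miRNA is a short RNA that guides Argonaute proteins to messenger RNAs, mostly through pairing of its seed, bases 2 to 8, and lowers their translation or stability. One hairpin can give a mature strand from either arm. The strand named as the less abundant is marked with a star, though some star strands, such as miR-144* and miR-199*, were the more abundant here. The FNP forms the upper beak in birds, and its mesenchyme grows from a form that is alike between species at HH20 to one with species-specific growth at HH25. The let-7 miRNAs are known for rising as cells differentiate, and the miR-302/miR-367 cluster for its high level in pluripotent embryonic stem cells.

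The sequences of the miRNAs on which the stage comparison turns are given as the files list them, with the seed in capitals. They are the miRBase sequences to which the quail reads were matched, not sequences read from quail. The let-7 strands are shown because the members higher at HH25 differ by so few bases that reads could be assigned to the wrong one, the miR-302/miR-367, miR-92b and miR-32 strands because they share a cluster or a seed and were lower at HH25, and miR-221, miR-2954, miR-205a and miR-122 because they carry the larger or more abundant of the other lower values.
let-7a: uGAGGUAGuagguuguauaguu
let-7c: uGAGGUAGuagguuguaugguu
let-7f: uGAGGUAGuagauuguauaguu
let-7g: uGAGGUAGuaguuuguacagu
let-7d: aGAGGUAGuggguugcauagu
let-7k: uGAGGUAGuagauugaauaguu
let-7b: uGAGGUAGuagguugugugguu
miR-302b: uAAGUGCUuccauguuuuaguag
miR-302c: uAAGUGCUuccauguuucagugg
miR-302b*: aCUUUAACauggaggugcuuucu
miR-367: aAUUGCACuuuagcaauggug
miR-92b: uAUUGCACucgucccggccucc
miR-32: uAUUGCACauuacuaaguugc
miR-221: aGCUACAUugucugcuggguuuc
miR-2954: cAUCCCCAuuccacuccuagca
miR-205a: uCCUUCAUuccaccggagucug
miR-122: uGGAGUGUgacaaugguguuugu
Shared seeds can be read from these lines. All 7 let-7 strands share GAGGUAG, miR-302b and miR-302c share AAGUGCU, and miR-367, miR-92b and miR-32 share AUUGCAC although only miR-367 belongs to the miR-302/miR-367 cluster.

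At HH25, let-7 miRNAs, the miR-125b and miR-99a star strands and 2 further miRNAs were at least 2-fold above their HH20 level, while the miR-302/miR-367 strands and a mixed group of other miRNAs were at least 2-fold below it. A difference of at least 2-fold, with a level above 15 PMMR in 1 library or both, was found for 30 of the miRNAs (16.1%). Of these, 9 (4.84%) were higher and 21 (11.3%) were lower at HH25. Over all miRNAs the median log2 ratio of HH25 to HH20 was 0.07, with 99 ratios above 1 and 87 below, the middle of the distribution ran from -0.57 to 0.45 (quartiles), and the levels of the 2 libraries correlated with r = 0.98 on the log2 scale across miRNAs, which are not independent replicates. The counting interval lay above a ratio of 1 for 78 miRNAs, below it for 68 miRNAs, and held 1 for 40 miRNAs. Of 55 miRNAs that reached 1000 PMMR, 5 were higher and 2 lower, of 69 between 100 and 1000 PMMR, 1 was higher and 9 lower, and of 62 that stayed under 100 PMMR, 3 were higher and 10 lower. Of the 30, the interval reached inside 2-fold for 13, so that 17 were past 2-fold beyond counting error. Across miRNAs the log2 ratio had a correlation of 0.30 with the mean level, -0.03 with the GC content and -0.12 with the length of the listed sequence. By name, 21 of the 30 were among the 121 strands annotated in chicken, 8 among the 35 named after human or zebra finch miRNAs, and 1 among the 30 star strands that lacked a chicken annotation.

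**Figure D1:**
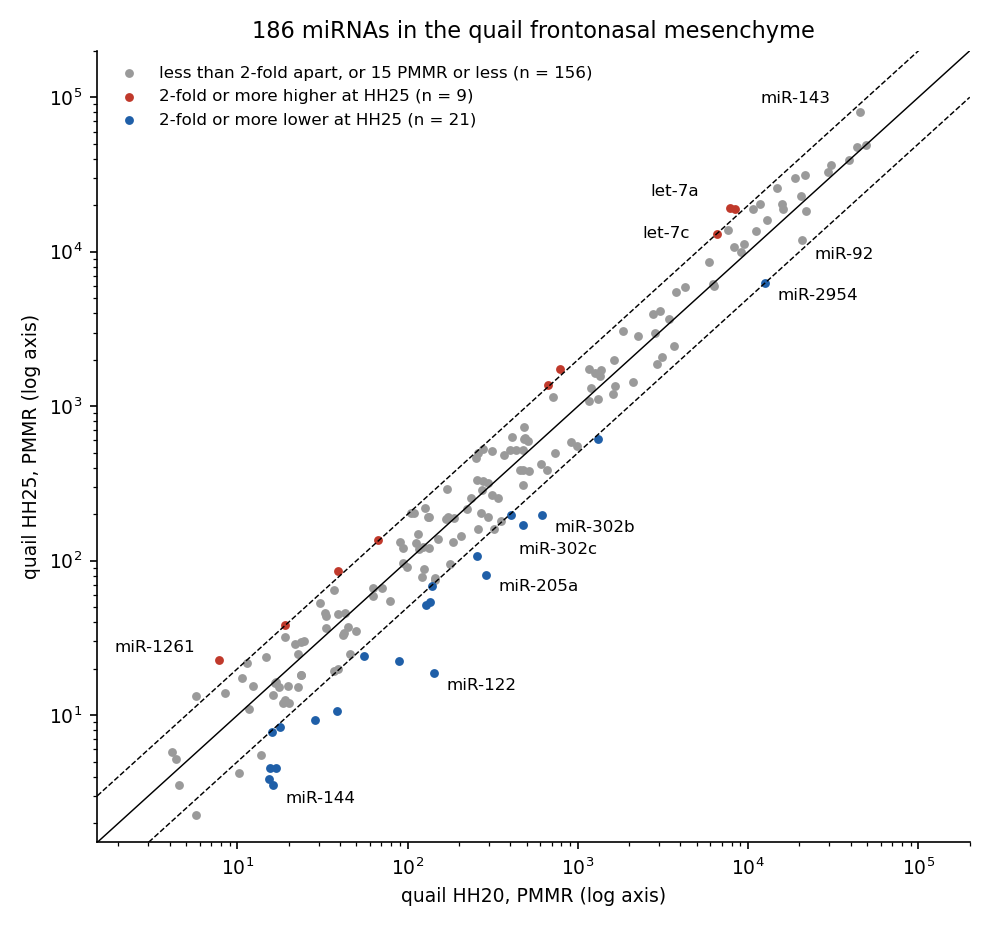
Level of each miRNA in the quail HH25 library (vertical) against the quail HH20 library (horizontal), both in PMMR on log axes. Solid line, equal levels; dashed lines, 2-fold. The 9 higher miRNAs (red) include let-7a and let-7c among the abundant ones, and most of the 21 lower (blue) lie under 1000 PMMR.

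The split between higher and lower depends on what the reads are scaled to. All miRNAs together took 73.8% of the reads at HH25 and 59.8% of the reads at HH20, a 1.24-fold difference in their sum. Scaled to the miRNA reads instead of all reads, every log2 ratio is lower by 0.31, and 1 miRNA (miR-1261) was at least 2-fold higher and 34 were at least 2-fold lower. After median-centring the counts were 5 higher and 26 lower. Directions below are those in PMMR. A ratio above 1 by less than 0.31 on the log2 scale turns below 1 when scaled to the miRNA reads, which leaves 63 ratios above 1 in place of 99. Among the miRNAs named below this holds for let-7b, miR-10a, miR-17-5p, miR-20b, miR-21, miR-23b, miR-99a, miR-126, miR-126*, miR-146c, miR-191, miR-363, miR-454 and miR-460a*. The count has to be read beside the spread between samples of 1 group, which only chicken and duck can give. There, the second sample (5 embryos) was at least 2-fold from the first (40 embryos) for 52.2% of the miRNAs in chicken at HH25, 26.9% in chicken at HH20, 16.7% in duck at HH25 and 25.8% in duck at HH20. The quail stages, with 30 miRNAs 2-fold apart, were within 1 miRNA of the duck samples at HH25, with 31.

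**Figure D2:**
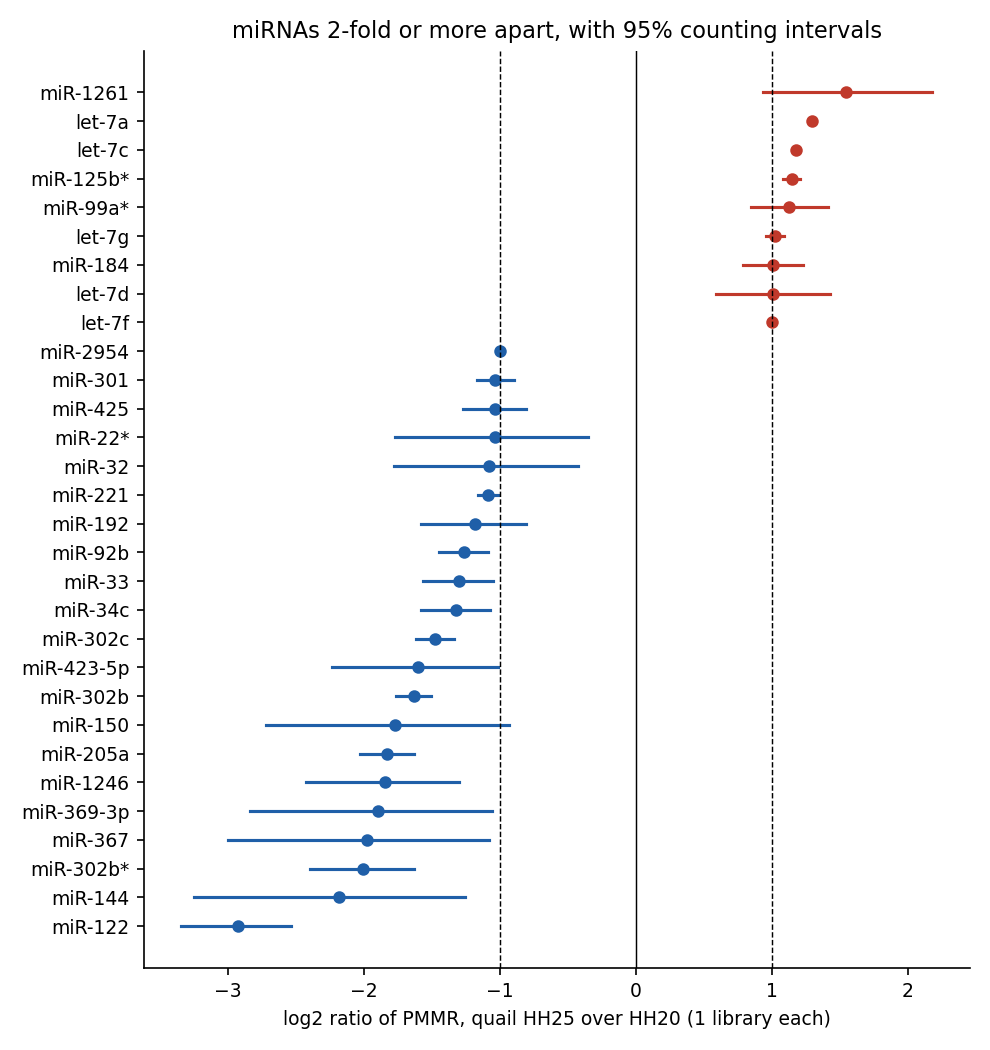
Log2 ratio of PMMR, quail HH25 over quail HH20, for the 30 miRNAs at least 2-fold apart (points), with exact 95% counting intervals (lines). Ratios run from -2.93 (miR-122) to 1.55 (miR-1261), and the intervals of 13 miRNAs cross the dashed 2-fold lines.

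The let-7 family held 5 of the 9 higher miRNAs. In the mammalian embryo let-7 is held back by LIN28 in early cells and targets growth regulators such as HMGA2 once it matures. The most abundant member at HH25, let-7a, had 19168 PMMR (59377 reads) at HH25 and 7790.5 PMMR (34219 reads) at HH20, a 2.46-fold higher level (interval 2.43 to 2.49). For let-7c the levels were 18837 PMMR at HH25 and 8306.8 PMMR at HH20, 2.27-fold higher (2.24 to 2.3). These 2 strands and let-7f carried nearly all let-7 reads at both stages. let-7f had 13094 PMMR at HH25 and 6532.6 PMMR at HH20, which was 2.0-fold higher (1.97 to 2.04). The scarcer let-7g had 1363 PMMR at HH25 and 670.0 PMMR at HH20 (2.03-fold, 1.94 to 2.13), and let-7d had 38.4 PMMR at HH25 and 19.1 PMMR at HH20 (2.01-fold, 1.51 to 2.69). The other 5 strands were less than 2-fold apart, with log2 ratios between 0.29 (let-7b) and 0.70 (let-7c*). In sum, the 10 let-7 strands took 52771 PMMR at HH25 and 23507 PMMR at HH20, 2.25-fold apart. All 10 ratios were above 1, with a median of 0.85 on the log2 scale, against a median of 0.07 and 53.2% of ratios above 1 over all miRNAs. Scaled to the miRNA reads, 9 of the 10 stayed above 1 and let-7b did not, and none of the 5 was 2-fold apart any more, with log2 ratios of 0.99 for let-7a, 0.88 for let-7c, 0.72 for let-7g and 0.70 for let-7d and let-7f. Since let-7a differs from let-7c and from let-7f by 1 base each, and reads were matched with mismatches allowed, the share of each member is less certain than the family sum.

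The miR-302/miR-367 cluster was lower at HH25 in all 4 of its measured strands. miR-302b had 198 PMMR (612 reads) at HH25 and 613 PMMR (2694 reads) at HH20, a 3.10-fold lower level (2.84 to 3.40). miR-302c, which shares its seed, had 171 PMMR (530 reads) at HH25 and 476 PMMR (2092 reads) at HH20, 2.78-fold lower (2.53 to 3.07). The other arm of the miR-302b hairpin went the same way: miR-302b* had 22.3 PMMR (69 reads) at HH25 and 89.5 PMMR (393 reads) at HH20, 4.02-fold lower (3.10 to 5.27). miR-367 was near the limit of 15 PMMR, with 3.87 PMMR (12 reads) at HH25 and 15.3 PMMR (67 reads) at HH20, and its interval is wide (2.11 to 8.0 around 3.94-fold). Together the 4 strands had 394.8 PMMR at HH25 and 1194 PMMR at HH20, 3.03-fold apart, and the median log2 ratio was -1.81. The cluster was scarce at both stages beside let-7. Its 4 ratios could not rise above 1 under the other scalings, which lowered every log2 ratio by at most 0.31.

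**Figure D3:**
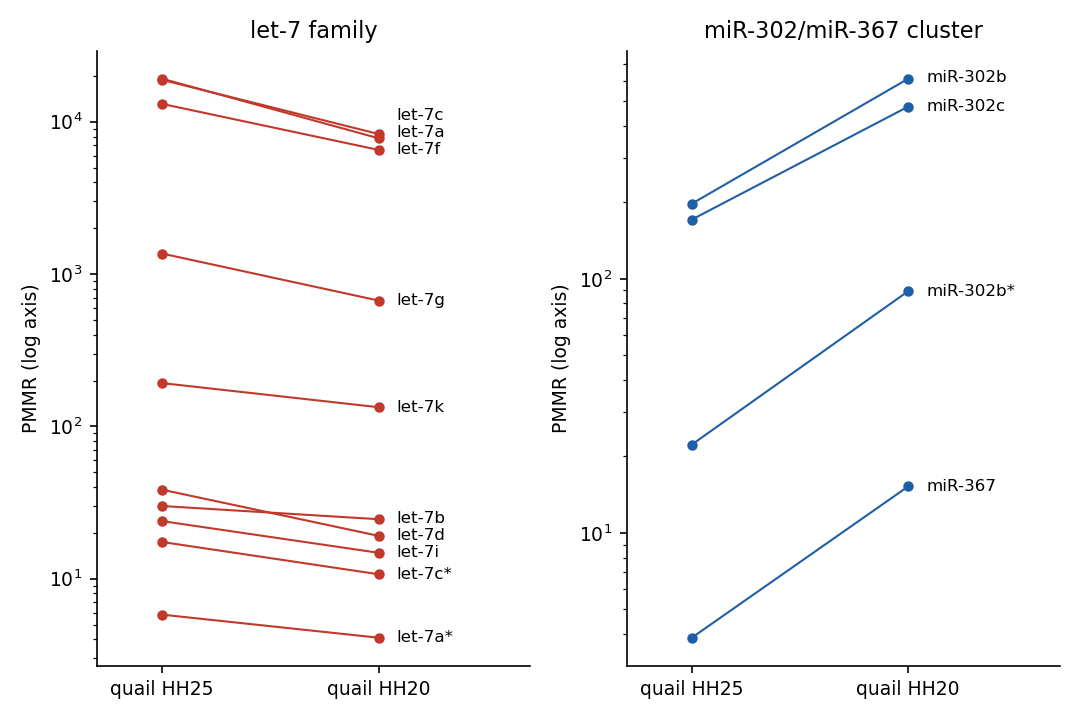
Levels in PMMR (log axes) of the 10 let-7 strands (left panel) and the 4 miR-302/miR-367 strands (right panel), each with quail HH25 to the left of quail HH20. Lines join the 2 libraries. Every let-7 strand is higher and every miR-302/miR-367 strand lower at HH25.

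Sharing a seed did not mean sharing a direction in all families. The seed AUUGCAC is carried by 5 strands, of which miR-367, miR-92b and miR-32 were at least 2-fold lower at HH25, miR-92 was 1.73-fold lower, and miR-363 was 1.09-fold higher. miR-92b had 107 PMMR at HH25 and 257 PMMR at HH20 (2.40-fold lower, 2.12 to 2.73), and miR-32 had 8.39 PMMR at HH25 and 17.8 PMMR at HH20 (2.12-fold lower, 1.34 to 3.44). Because miR-363 and miR-92 are so abundant, the summed level of this seed was 59685 PMMR at HH25 and 64546 PMMR at HH20, only 1.08-fold apart. The seed AGUGCAA of miR-130, miR-301 and miR-454 split as well: miR-301 was 2.05-fold lower (197 PMMR at HH25, 403.7 PMMR at HH20) and miR-301b-3p 1.98-fold lower, while miR-130b, the main carrier, was 1.30-fold higher (20472 PMMR at HH25, 15781 PMMR at HH20). miR-301 and miR-301b-3p differ by 1 base and may share reads. With their star strands the 9 strands of the miR-130/miR-301/miR-454 family had 4 ratios above 1 and a median of -0.51. Over all miRNAs 53.2% of ratios were above 1. In this family miR-130a was highest (0.40). By contrast, the 4 strands with the seed AAAGUGC of the miR-17 family all lay between 0.24 and 0.30 on the log2 scale, less than the 0.31 by which the sum of all miRNAs differed.

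The most abundant miRNAs of the FNP mesenchyme were largely the same at both stages, with 8 of the 10 highest in common. The 10 highest took 53.6% of the miRNA reads at HH25 and 53.9% at HH20. miR-143, a miRNA of mesenchymal and smooth muscle cells, ranked first at HH25 with 80641 PMMR and second at HH20 with 45352 PMMR, 1.78-fold higher at HH25 (1.77 to 1.79). miR-146a, at rank 2 at HH25 and rank 1 at HH20, and miR-146c, at rank 4 at both stages, are related miRNAs known in mammals as brakes on inflammatory signalling, and were close to level: miR-146a had 48752 PMMR at HH25 and 49111 PMMR at HH20, and miR-146c had 39398 PMMR at HH25 and 39107 PMMR at HH20. The others of the first 6 were miR-363 with 47618 PMMR at HH25 and 43614 PMMR at HH20, miR-20b with 36328 PMMR at HH25 and 30811 PMMR at HH20, and miR-21 with 32998 PMMR at HH25 and 29582 PMMR at HH20, all within 1.18-fold. miR-199*, from a hairpin typical of mesenchyme, had 18222 PMMR at HH25 and 21859 PMMR at HH20 and left the 10 highest at HH25.

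Taken as differences in PMMR rather than as folds, the gains at HH25 were larger in sum than the losses. Summed over the miRNAs that gained, HH25 had 170829 PMMR more than HH20, and over those that lost it had 29977 PMMR less. The net of the 2 sums is the larger share of miRNA reads at HH25 and would be 0 if values were scaled to the miRNA reads. miR-143 alone made up 20.7% of the gains with 35288 PMMR, and the 10 largest gains together made up 69.6%. After it came let-7a (11378 PMMR), miR-103 (11251 PMMR), miR-140-3p (10931 PMMR), let-7c (10531 PMMR) and miR-148a (9611 PMMR). miR-16, miR-16c, let-7f and miR-30a-5p gained between 6303 and 8656 PMMR, and of these 10 only the let-7 strands were 2-fold apart. The largest losses were those of miR-92, with 11948 PMMR at HH25 and 20642 PMMR at HH20, and of miR-2954 and miR-199*. By name miR-92 matches chicken genes in both the miR-17-92 and the miR-106/miR-363 cluster. The others of the 10 largest losses, miR-30c, miR-148b, miR-19b, miR-221, miR-181b, miR-222 and miR-302b, were between 416 and 1207 PMMR.

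The higher miRNAs outside let-7 were the star strands of miR-125b and miR-99a, miR-1261 and miR-184. Of their hairpins, that of miR-99a lies within 10 kb of a let-7 hairpin (let-7c) in the chicken annotation. miR-125b* had 1733 PMMR (5369 reads) at HH25 and 782 PMMR (3437 reads) at HH20, 2.22-fold higher (2.12 to 2.31). miR-99a* had 85.6 PMMR at HH25 and 39.2 PMMR at HH20, 2.18-fold higher (1.80 to 2.66). Their main strands were nearer to level: miR-125b had 4129 PMMR at HH25 and 3014 PMMR at HH20, and miR-99a had 1316 PMMR at HH25 and 1200.5 PMMR at HH20. All 7 strands of the miR-99/miR-100/miR-125 group had ratios above 1 (median log2 0.49), against 53.2% of ratios over all miRNAs. When scaled to the miRNA reads, 6 of 7 stayed above 1. miR-1261 had the highest ratio of the 9, 2.92-fold (1.91 to 4.54), on few reads (22.6 PMMR and 70 reads at HH25, 7.74 PMMR and 34 reads at HH20). miR-184, a miRNA of lens and cornea, had 135 PMMR at HH25 and 67.2 PMMR at HH20, 2.01-fold higher (1.73 to 2.35). Scaled to the miRNA reads, miR-125b* (log2 ratio 0.84), miR-99a* (0.82) and miR-184 (0.70) were less than 2-fold higher.

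Several other families had no member counted as 2-fold apart. Their counts stand beside 53.2% of ratios above 1 over all miRNAs. In the miR-30 family 8 of 10 strands were above 1 (median log2 0.52), from miR-30a-5p with 13890 PMMR at HH25 and 7587.6 PMMR at HH20 down to miR-30b at a log2 ratio of -0.63. Scaled to the miRNA reads, 6 of the 10 miR-30 strands were above 1 (median 0.22). All 10 were above 1 in the first samples of both chicken and duck, but only 3 in the second samples of each bird. In the miR-15/16 family, which restrains the cell cycle in mammalian cells, 4 of 6 were above 1 (median 0.59), led by miR-16c with 19018 PMMR at HH25 and 10674 PMMR at HH20, whereas miR-15a was at -0.13. The cartilage miRNA miR-140-3p, known from mouse chondrocytes, had 25782 PMMR at HH25 and 14850.4 PMMR at HH20 (1.74-fold higher, 1.72 to 1.75). miR-455-3p, grouped with it as a cartilage miRNA, was on the other side at -0.51. All 6 strands of the miR-23/27/24 clusters were above 1, from miR-23b (0.07) to miR-24 (0.74), but only 2 of 6 were above 1 when scaled to the miRNA reads. The list median of the miR-143/miR-145 cluster, 0.25, also turned below 0 under that scaling. The miR-146 family was at a median of 0.01 (-0.01 to 0.11). Small or scarce families had no common direction: the 4 miR-181 strands ran from -0.54 (miR-181b) to 0.36 (miR-181a*), the miR-10 strands were at -0.35 (miR-10b) and 0.14 (miR-10a), and the miR-460 strands ran from -1.33 (miR-460b-5p, under 15 PMMR at both stages) to 0.24 (miR-460a*).

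**Figure D4:**
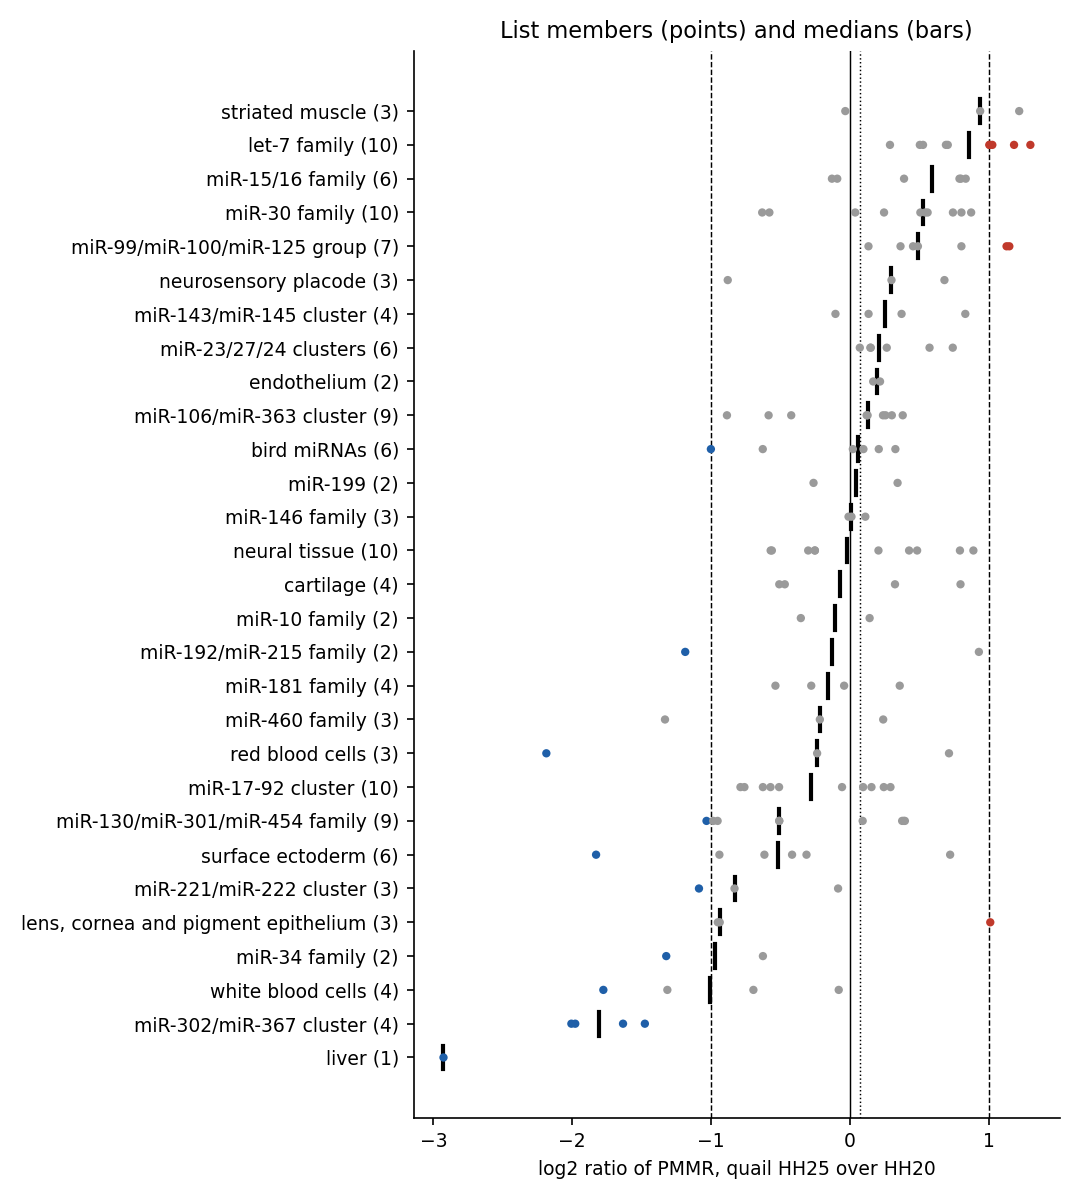
Log2 ratio of PMMR, quail HH25 over HH20, of each member (points) of the 29 lists, with the list median (black bars) and the number of members in brackets. Red and blue points are the miRNAs counted as at least 2-fold higher or lower; grey points past the dashed 2-fold lines had 15 PMMR or less in both libraries. The dotted line is the median of all miRNAs, 0.07. Medians run from -2.93 (liver, 1 miRNA) to 0.94 (striated muscle).

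Among lower miRNAs with a place in the control of proliferation, miR-221 had 613 PMMR (1899 reads) at HH25 and 1303 PMMR (5722 reads) at HH20, 2.13-fold lower (2.02 to 2.24). Its cluster partner miR-222 has the same seed and, like miR-221, is a repressor of the cell cycle inhibitor p27Kip1 in mammalian and chicken cells. It was less than 2-fold apart, with 556 PMMR at HH25 and 989 PMMR at HH20 (1.78-fold lower, 1.68 to 1.88). The star strand miR-221* had 1088 PMMR at HH25 and 1154 PMMR at HH20, close to level. Of the proliferation-linked miR-17-92 cluster 4 of 10 strands were above 1 (median -0.28), from miR-92 (-0.79) to miR-17-5p (0.29), and none was above 1 when scaled to the miRNA reads. Of its paralogue, the miR-106/miR-363 cluster, 6 of 9 strands were above 1 (median 0.13) and 1 of 9 when scaled to the miRNA reads, with miR-18b* lowest (-0.89) and miR-363* highest (0.38). The listed miR-18b* sequence matches miR-18a* of the miR-17-92 cluster with 0 mismatches over its length, so these strands may share reads. miR-92, miR-19b and miR-19b*, all below 1, were counted under miR-17-92 only, although by name they match chicken genes in both clusters. The 2 medians depend on that choice. miR-34c, of a family induced by p53 in mammals, had 54.2 PMMR at HH25 and 136 PMMR at HH20, 2.5-fold lower (2.1 to 2.99), and miR-34a was at -0.63 on few reads.

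The most abundant miRNA past 2-fold in the lower direction was miR-2954, a bird miRNA known in chicken and zebra finch for its Z-linked gene and higher level in males. It had 6275 PMMR (19438 reads) at HH25 and 12565 PMMR (55190 reads) at HH20, 2.0-fold lower (1.97 to 2.04), and is the miRNA nearest to the 2-fold limit. The sex of the pooled embryos is not given in the sources used here. Of the 6 bird miRNAs, 4 had ratios above 1, up to miR-2131 at 0.33, against 53.2% of ratios over all miRNAs. The star strand miR-2954* was below 1 with its main strand (588.5 PMMR at HH25, 909.5 PMMR at HH20). Of the remaining lower miRNAs, miR-33, from an intron of a sterol regulator gene, had 52.0 PMMR at HH25 and 128 PMMR at HH20 (2.47-fold). miR-425 had 68.1 PMMR at HH25 and 139.8 PMMR at HH20 (2.05-fold), miR-192 had 24.2 PMMR at HH25 and 55.1 PMMR at HH20 (2.28-fold), and miR-22* had 7.75 PMMR at HH25 and 15.9 PMMR at HH20 (2.06-fold). miR-192 and miR-215 share a seed and went opposite ways, with miR-215 at 525 PMMR at HH25 and 276 PMMR at HH20.

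Of the miRNAs known to mark tissues other than mesenchyme, miR-122, miR-205a, miR-150 and miR-144 were at least 2-fold lower. In the other direction, miR-184 was at least 2-fold higher. By list, the lower ones were 1 of 6 surface ectoderm, 1 of 4 white blood cell and 1 of 3 red blood cell markers and the 1 liver marker. None of the 10 neural, 3 neurosensory placode, 2 endothelial or 3 striated muscle markers was. Over all miRNAs 11.3% were at least 2-fold lower, and the share among all markers was not counted. By the study's methods, the surface ectoderm and the neuroectoderm of the forebrain had been taken off the FNP by hand after dispase digestion. The lowest ratio of all was that of miR-122, the main miRNA of liver cells, with 18.7 PMMR (58 reads) at HH25 and 143 PMMR (627 reads) at HH20, 7.63-fold lower (5.82 to 10.2). miR-205a, a miRNA of surface epithelium, had 81.0 PMMR (251 reads) at HH25 and 288 PMMR (1264 reads) at HH20, 3.55-fold lower (3.10 to 4.08). Of the 6 surface ectoderm markers, 5 were below 1 (median -0.52) and miR-31 was highest (0.72), and their summed level was 767 PMMR at HH25 and 1295 PMMR at HH20. All 4 white blood cell markers were below 1 (median -1.0), from miR-150 (4.52 PMMR at HH25, 15.5 PMMR at HH20, 3.42-fold lower, 1.91 to 6.59) to miR-223 (-0.08), with a sum of 237 PMMR at HH25 and 359 PMMR at HH20. In dissected bulk tissue, fewer cells of a type and less of the RNA per cell cannot be told apart, and whether such cells take part in the differences above was not tested.

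Of the red blood cell markers, miR-144 was 4.55-fold lower (2.40 to 9.53) on 11 reads at HH25 and 71 reads at HH20, while miR-144*, the main strand here, was at -0.24 and miR-451, its neighbour in the genome, at 0.71. The summed red blood cell level was 1621 PMMR at HH25 and 1633 PMMR at HH20. Among 10 neural strands 5 were above 1, against 53.2% of ratios over all miRNAs. They ran from miR-129-3p (-0.57) to miR-129-5p (0.89), with a sum of 1338 PMMR at HH25 and 1537 PMMR at HH20. The 3 neurosensory placode markers ran from miR-96 (-0.88) to miR-183 (0.68) and summed to 3164 PMMR at HH25 and 2382 PMMR at HH20. The lens, cornea and pigment epithelium markers miR-204 and miR-211, which have identical sequences in the files, were at -0.95 and -0.94, against 1.01 for miR-184. Both endothelial strands were above 1 in PMMR and below 1 when scaled to the miRNA reads: miR-126 had 22926 PMMR at HH25 and 20420 PMMR at HH20, and miR-126* had 1574 PMMR at HH25 and 1355 PMMR at HH20. Of the striated muscle markers, miR-1a had 497 PMMR at HH25 and 259.8 PMMR at HH20. miR-1b, which has the highest log2 ratio of that list (1.22), stayed under 15 PMMR at both stages. It differs from miR-1a by 1 base and may share reads with it. miR-489, the lowest of the list, was close to level (16.46 PMMR at HH25, 16.85 PMMR at HH20, log2 ratio -0.03). The mesenchymal miR-199 strands summed to 21078 PMMR at HH25 and 24112 PMMR at HH20.

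A further 3 lower miRNAs carry the names of human miRNAs and had few reads. miR-1246, which in human samples is known to come largely from the U2 spliceosomal RNA, had 10.7 PMMR (33 reads) at HH25 and 38.3 PMMR (168 reads) at HH20, 3.59-fold lower (2.46 to 5.38). miR-369-3p, from an imprinted cluster of placental mammals, had 4.52 PMMR (14 reads) at HH25 and 16.9 PMMR (74 reads) at HH20, 3.73-fold lower (2.09 to 7.15). miR-423-5p had 9.36 PMMR (29 reads) at HH25 and 28.5 PMMR (125 reads) at HH20, 3.04-fold lower (2.02 to 4.72). With miR-122 these miRNAs shared a pattern in the other birds: all 4 were lower at HH25 in the first chicken and first duck samples, and all 4 were higher at HH25 in the second chicken and second duck samples. The pattern was not particular to them. Among others, miR-126, miR-1a, miR-1b, miR-10a and miR-145* had it too, and these were higher at HH25 in quail. It was also found in miR-181b, miR-187, miR-193a*, miR-193b* and miR-1552-5p, which were lower at HH25 in quail. The share of the pattern over all miRNAs was not counted. The first samples pooled 40 embryos, as the quail samples did, and the second samples pooled 5.

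Strands were paired by name as the arms of a hairpin, which gave 46 pairs. miR-30c and miR-125b each stand in more than 1 pair, with different star strands. In 30 of the 46 pairs both strands were on the same side of 1, the log2 ratios of the 2 strands correlated across pairs with r = 0.48, and the median gap between them was 0.46. The dominant strand was the same at both stages in 44 pairs. It differed for miR-221, where miR-221* was 1.78 times miR-221 at HH25 and miR-221 was the higher at HH20 (ratio of star to main strand 0.886), and for the miR-460 hairpin, whose ratio of miR-460a* to miR-460 was 1.22 at HH25 and 0.890 at HH20. The largest gap was in miR-22, with miR-22 at 205 PMMR at HH25 and 104.5 PMMR at HH20 but miR-22* lower at HH25. The ratio of the strands was 26.4 at HH25 and 6.56 at HH20. For the miR-144 hairpin the ratio of miR-144* to miR-144 was 312 at HH25 and 80.8 at HH20. The miR-30c hairpins went the other way, miR-30c being 11.1 times miR-30c-2* at HH25 and 29.0 times at HH20. miR-30c and several other main strands can come from more than 1 hairpin, and the rarer strands of miR-22 and miR-144 rest on 24 and 11 reads at HH25.

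Neighbouring miRNA genes, which are often transcribed together, were found by name in the chicken RefSeq annotation, where 168 strands matched a miRNA gene. At a spacing of at most 10 kb these formed 25 groups. The 4 strands of the group with miR-302b, miR-302c and miR-367 all lay below -1 on the log2 scale. The 4 strands of the miR-99a and let-7c group all lay above 0 (0.13 to 1.18), as did the let-7a, let-7f and let-7d group (0.50 to 1.30) and the miR-15c and miR-16c group (0.79 and 0.83). The miR-200a, miR-200b and miR-429 group lay wholly below 0 (-0.94 to -0.42), and so did miR-221 and miR-222 (-1.09 to -0.09). Also wholly above 0 lay the miR-23b, miR-27b and miR-24 group (0.07 to 0.74). So did the groups of let-7a with let-7b (0.29 to 1.30) and with miR-100 (0.49 to 1.30). The remaining groups were mixed: in the miR-144 and miR-451 group the strands ran from -2.19 to 0.71, and in the miR-191 and miR-425 group miR-191 was at 0.00 and miR-425 at -1.04. let-7a strands can come from several of these groups, and the quail genome was not used.

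The 2-fold limit divides miRNAs with like values. Just inside it lay miR-2954, let-7f (2.0-fold) and let-7d (2.01-fold), and just outside it lay miR-301b-3p (1.98-fold lower, 161 PMMR at HH25 and 319 PMMR at HH20), miR-22 (1.96-fold higher) and miR-301* (1.94-fold lower, 181 PMMR at HH25 and 351 PMMR at HH20). A further 4 miRNAs were past 2-fold with no more than 15 PMMR in either library and were not counted: miR-460b-5p (7 reads at HH25, 25 at HH20), miR-142-5p (17 at HH25, 60 at HH20), miR-193b (13 at HH25, 45 at HH20) and miR-1b (41 at HH25, 25 at HH20).

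The stage ratios of chicken and duck come from other libraries than those of quail and can be set beside them, with the second chicken sample at HH25 standing apart from the first as given above. Of the 9 miRNAs higher in quail, 8 were also higher at HH25 in the first pair of chicken samples, where 54.8% of all miRNAs were, and 8 in the second pair, where 55.4% were. In duck, 7 of the 9 were higher in the first pair (50.5% of all miRNAs) and 9 of 9 in the second pair (50%). Of the 21 miRNAs lower in quail, 11 were lower in the first chicken pair (45.2% of all miRNAs) and 14 in the second (44.6%). In duck, 15 of the 21 were lower in the first pair (49.5% of all miRNAs) and 12 in the second (50%). These counts were not tested. Of the higher miRNAs, miR-1261 and the let-7 strands g, f, d, c and a were higher in all 4 pairs of samples. Of the lower miRNAs, miR-302b, miR-302b*, miR-302c and miR-150 were lower in all 4. Such agreement was not particular to miRNAs past 2-fold. Among others, miR-16, miR-16c and miR-30a-5p were higher in quail and in all 4 pairs, and miR-144*, miR-221* and miR-2954* were lower. Its share over all miRNAs was not counted, so the names are listed without a reading of how many agree. miR-192 was the one miRNA of the 30 whose direction in quail was found in no other pair. Its quail difference (1.19 on the log2 scale) was smaller than that between the 2 samples of each chicken and duck group (2.03 to 4.65). Across all miRNAs the log2 ratio of quail correlated with that of chicken at r = 0.17 for the first pair and 0.27 for the second pair, and with that of duck at 0.45 for the first pair and 0.28 for the second.

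**Figure D5:**
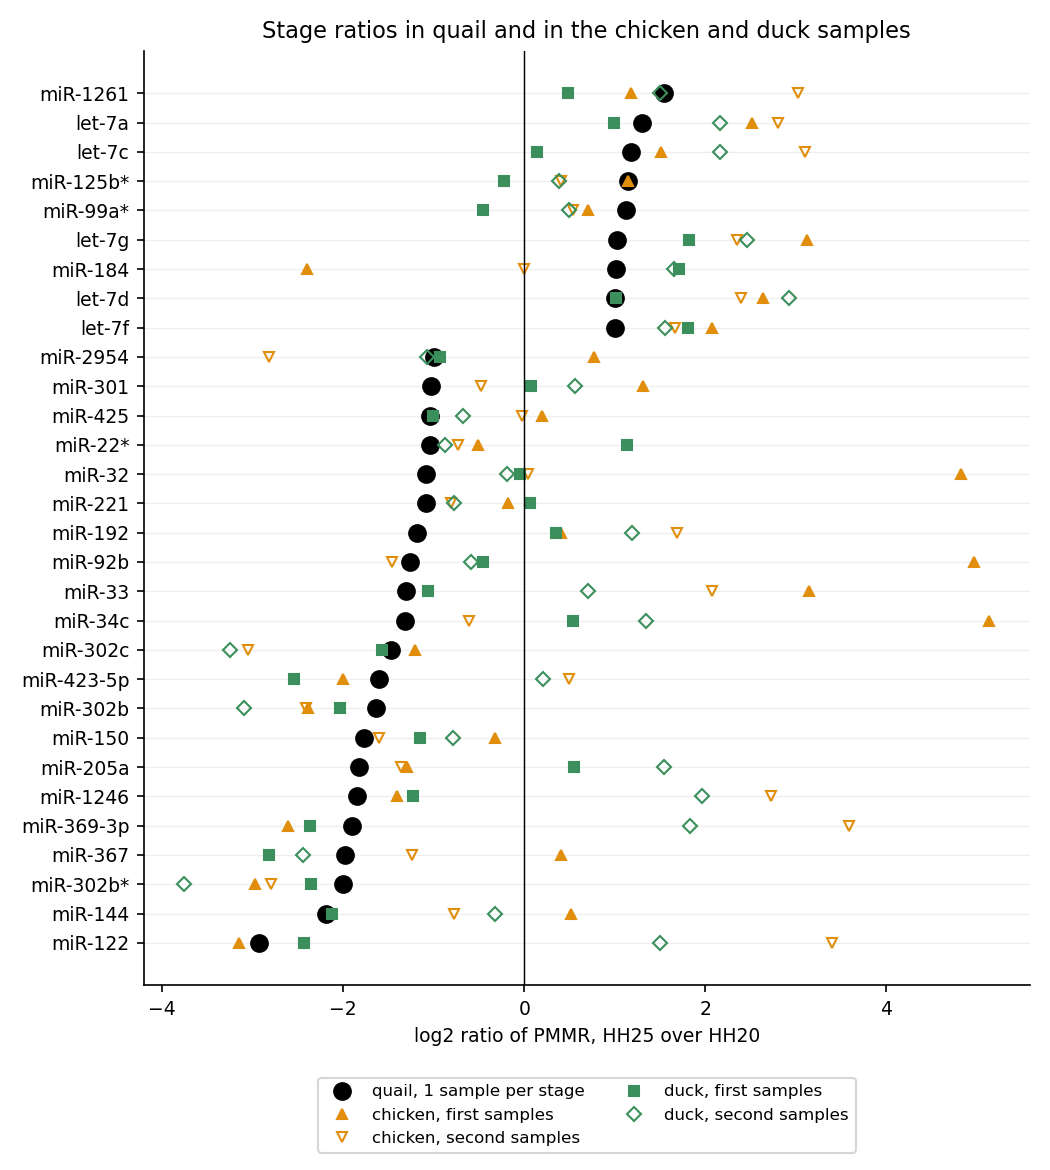
Log2 ratio of PMMR, HH25 over HH20, for the 30 miRNAs at least 2-fold apart in quail (black), with the ratio in the first and second samples of chicken (orange) and duck (green). let-7 strands and miR-302b, miR-302b* and miR-302c have all points on one side of 0, whereas those of miR-423-5p, miR-369-3p, miR-122 and miR-1246 fall on both sides.

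The spread within chicken and duck also limits what a single quail pair can show. For 8 of the 30 miRNAs the quail stage difference was larger than the difference between the 2 samples in each of the 4 chicken and duck groups: miR-302b, miR-302b*, miR-302c, miR-221, miR-425, miR-99a*, miR-125b* and miR-1261. Over all miRNAs this held for 15 (8.06%), a share that the choice of large ratios raises among the 30. Whether the quail stage change differed from the mean stage change of chicken and duck was tested with limma on log2(PMMR + 1) over the 10 samples, on the assumption that the lone quail samples vary as the chicken and duck samples do. No miRNA (0%) passed an adjusted p of 0.05, 0 had an unadjusted p under 0.05, and limma voom on the reads gave 0 and 0 as well. The lowest adjusted p was 0.994 in limma. First in the order of p stood miR-460a*, which had 327 PMMR at HH25 and 277 PMMR at HH20 in quail. It was lower at HH25 in both other birds, with 9.02 and 45.8 PMMR at HH25 against 228 and 112 PMMR at HH20 in chicken, and 52.2 and 39.6 PMMR at HH25 against 358 and 136 PMMR at HH20 in duck. The difference of 2.81 on the log2 scale had a standard error of 1.39.

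The next in that order was let-7i, which had 23.9 PMMR at HH25 and 14.8 PMMR at HH20 in quail, 260 and 68.7 PMMR at HH25 against 9.58 and 7.91 PMMR at HH20 in chicken, and 116 and 79.6 PMMR at HH25 against 22.5 and 9.50 PMMR at HH20 in duck. Its difference was -2.56 with a standard error of 1.302. miR-460b-5p (difference -2.59), miR-301 (-1.396) and miR-2954* (2.21) followed, with the same adjusted p of 0.994 in limma. Of the samples left out 1 at a time, the 2 chicken samples at HH25 lowered the smallest p in limma the most. No calls are given for such fits, since 1 sample then remains in the group. Without the second chicken sample at HH25, miR-34c had a difference of -4.53. Its levels were 54.2 PMMR at HH25 and 136 PMMR at HH20 in quail, 467 and 4.22 PMMR at HH25 against 13.2 and 6.46 PMMR at HH20 in chicken, and 772 and 422 PMMR at HH25 against 530 and 167 PMMR at HH20 in duck. The 2 chicken samples at HH25 lie far apart for this miRNA, and the size of the difference rests on which of them is kept.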

How the data were processed

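The authors dissected the FNP mesenchyme, isolated total RNA with Trizol, made libraries with an Illumina small RNA kit after size selection, removed adapters, matched reads to miRBase sequences of chicken, human and zebra finch, and deposited for each library the PMMR of 186 miRNAs, rounded to 2 decimals, with the total reads. The reads that PMMR and the total give lay within 0.06 of a whole number for 2046 of 2046 values, so each value stands for known reads. Ratios used no pseudocount. For chicken HH25, both runs of sample 2 were averaged. Trimmed means (TMM) were coded in Python.

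The difference was tested by limma 3.58.1 (R 4.3.3) with its trend option, after adding 1 to PMMR and taking log2, and p-values were adjusted by Benjamini-Hochberg over all miRNAs. The labels call the second chicken and duck samples biological replicates of the first, and the study's methods give separate pools of 5 and 40 embryos, so the spread between samples includes that of pool size. Other values came from Python 3.11.15. Scripts were tested on simulated data. Gene names were matched to the chicken RefSeq annotation, of which no position was used other than for neighbours.

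The miRNAs named are those 2-fold apart with more than 15 PMMR, the extremes of each list, the 10 most abundant, the 10 largest gains and losses, the 5 lowest p and the 3 on each side of the limit. Others are named as partners of these or as examples. Members and lists were chosen with earlier results of these data known. The alternatives were other scalings, pseudocounts and limits on level, limma voom (chosen after seeing the data), the sample number as block, each bird or run alone, and leaving out each sample.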

Additional observations from a re-analysis of the deposited data

How the results depend on the processing

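The count of 30 miRNAs 2-fold apart between quail HH25 and HH20 became 35 when scaled to the miRNA reads (1 higher, 34 lower), 31 after median-centring and 31 with TMM factors (5 higher and 26 lower in each), 26 with a pseudocount of 1 PMMR, 20 above 50 PMMR and 34 with no minimum. It was 16 with a pseudocount of 10 PMMR (5 higher, 11 lower) and 17 where the whole counting interval had to be past 2-fold (3 higher, 14 lower). Of the 30, 22 stayed 2-fold apart when scaled to the miRNA reads. Under that scaling the list median turned below 0 for the miR-106/miR-363 cluster (-0.18), neurosensory placode (-0.0066), endothelium (-0.11), the miR-143/miR-145 cluster (-0.0528), miR-199 (-0.27), the miR-23/27/24 clusters (-0.10), the miR-146 family (-0.29) and bird miRNAs (-0.25). It turned also with median-centring for miR-199 (-0.0317), the miR-146 family (-0.061) and bird miRNAs (-0.0131), with TMM factors for the same lists (-0.0583, -0.0877 and -0.0398), and with a pseudocount of 10 PMMR for neural tissue (0.0071). The sign of the 30 ratios could not change in these alternatives. Scaling moved each log2 ratio by at most 0.31, and a pseudocount keeps the order of the 2 values. Whether HH25 held more miRNA per cell than HH20 cannot be told from values relative to the reads of a library.

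The test of quail against chicken and duck gave 0 calls in limma under each alternative that keeps all samples. Leaving out 1 sample leaves 1 in its group, so no calls are given for those fits. Their smallest p depended most on the 2 chicken samples at HH25. With the sample number as a replicate block it gave 0 calls (lowest adjusted p 0.994 in limma). The differences between second and first sample correlated at 0.01 between the chicken stages, 0.25 between the duck stages, 0.20 between chicken and duck at HH25 and 0.61 at HH20, and at -0.05 and -0.0053 across both bird and stage, so they were shared in some groups and not in all. edgeR and its fit with DESeq2 size factors were not run. The share of miRNAs 2-fold apart between samples of 1 group was 44.1% in chicken HH25 and 17.2% in duck HH20 above 50 PMMR, and 20.4% in chicken HH20 and 19.4% in duck HH20 with a pseudocount of 10 PMMR. In duck HH25 it was 17.2% after median-centring, 14.5% with that pseudocount and 13.4% above 50 PMMR.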
